A study of Arabidopsis thaliana with 12 samples.

Results

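Glutathione S-transferase (GST) genes were followed in roots of Arabidopsis thaliana given methyl jasmonate (MeJA), the methyl ester of the wound hormone jasmonate. Members were genes whose symbol in the deposited tables was GST, optional class letters and a number, with an FPKM (a level scaled for gene length and for library size) of at least 1 in at least 3 of the 12 libraries. Of 18326 genes that passed the same filter, 41 were members: 24 of the tau class (GSTU), 10 of the phi class (GSTF), 3 theta (GSTT), 3 lambda (GSTL) and 1 zeta (GSTZ). Another 5 listed GST genes stayed below the filter. GSTF3, GSTF5, GSTU21 and GSTZ2 reached 1 FPKM in 0 libraries and GSTU12 in 1. GSTF12 lay just inside the filter, with 3 libraries, all of them erf114. GSTU15, which brings the symbols in the TAIR10.1 gene table to 47, was listed in none of the libraries.

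The study used 4 groups of 3 root libraries from seedlings grown 5 days at 22 °C after 2 days in the cold at 4 °C. They were the reference accession Col on MS medium, Col with MeJA for 3 h, the erf114 mutant on MS, and erf114 with MeJA for 3 h. ERF114 encodes an ethylene response factor, a transcription factor whose role in jasmonate signalling the study addressed; the labels give neither the allele of erf114 nor how many lines it stands for. Sources differ on the MeJA dose: the design text gives 50 µM, the treatment protocol 15 µM. Roots were sequenced in bulk, so fewer cells of a type and less RNA per cell cannot be told apart.

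GSTs join the tripeptide glutathione to reactive or toxic small molecules, which marks them for storage in the vacuole. Tau and phi are the large plant classes, known for herbicide and pollutant detoxification, and some phi enzymes supply sulfur to glucosinolates and camalexin, the indole defence compounds of the cabbage family. Lambda proteins act as thiol transferases, theta enzymes as peroxidases in peroxisomes, and zeta enzymes in the breakdown of tyrosine. The as-1 element, a promoter site with the core TGACG that TGA-type bZIP factors bind, is the best known control site of stress-induced GST genes.

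The 250 bases before the annotated start of each member gene were read from the TAIR10.1 genome with its RefSeq annotation and searched on both strands for TGACG, the core of as-1, and for the G-box CACGTG, the site preferred by MYC factors of jasmonate signalling. TGACG lay in 19.1% of the 18325 promoters of tested genes with a full window and in 14 of the 41 member promoters (34.1%). It lay in 12 of the 22 promoters of members that rose with MeJA in Col (54.5%) and in 2 of the 19 others (10.5%). In the tau class the counts were 10 of 17 genes that rose (58.8%) and 1 of 7 others. The G-box lay in 7.5% of all promoters and in 3 member promoters (7.3%), those of GSTF6, GSTL3 and GSTU18. A match is a letter match in this window and no test was made of the shares. Some windows overlap a neighbouring gene, as those of GSTU5, GSTU7 and GSTU24 do.

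Promoters of 3 tau genes that rose and carry the core are shown first, GSTU1, GSTU22 and GSTU25. Their log2 fold changes with MeJA in Col were 1.29, 1.31 and 2.83. Then come 2 genes without it that moved more, GSTU26 upward (3.18) and the phi gene GSTF14 downward (-3.06). The letters run 5′ to 3′ on the gene's strand and end at the base before the gene start, and capitals mark TGACG or its reverse complement. The windows are chr2:12632539-12632788 on the minus strand for GSTU1, chr1:29474004-29474253 on the minus strand for GSTU22, chr1:5871774-5872023 on the plus strand for GSTU25, chr1:5875045-5875294 on the plus strand for GSTU26 and chr1:18458276-18458525 on the plus strand for GSTF14.
GSTU1: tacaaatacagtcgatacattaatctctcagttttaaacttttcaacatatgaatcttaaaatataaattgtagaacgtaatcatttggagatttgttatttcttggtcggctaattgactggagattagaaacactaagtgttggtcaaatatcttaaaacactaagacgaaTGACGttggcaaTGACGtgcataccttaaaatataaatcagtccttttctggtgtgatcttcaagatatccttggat
GSTU22: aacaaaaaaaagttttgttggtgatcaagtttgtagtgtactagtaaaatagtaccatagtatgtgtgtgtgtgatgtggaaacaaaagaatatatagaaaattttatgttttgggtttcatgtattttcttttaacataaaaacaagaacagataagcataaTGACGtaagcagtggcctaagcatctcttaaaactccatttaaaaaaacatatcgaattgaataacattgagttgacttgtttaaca
GSTU25: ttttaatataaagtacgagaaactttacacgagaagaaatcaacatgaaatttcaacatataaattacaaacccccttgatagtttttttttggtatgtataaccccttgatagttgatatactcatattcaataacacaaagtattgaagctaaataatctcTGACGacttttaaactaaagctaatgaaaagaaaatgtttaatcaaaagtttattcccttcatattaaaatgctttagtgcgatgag
GSTU26: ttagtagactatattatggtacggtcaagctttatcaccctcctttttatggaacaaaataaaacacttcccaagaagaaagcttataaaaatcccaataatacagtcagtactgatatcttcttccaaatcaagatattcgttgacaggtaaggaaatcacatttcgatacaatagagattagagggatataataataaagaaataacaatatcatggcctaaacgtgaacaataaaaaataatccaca
GSTF14: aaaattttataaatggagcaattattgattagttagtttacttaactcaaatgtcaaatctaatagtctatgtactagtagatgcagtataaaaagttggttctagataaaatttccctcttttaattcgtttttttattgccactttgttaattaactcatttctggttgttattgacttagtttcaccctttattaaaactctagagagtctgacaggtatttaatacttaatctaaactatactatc

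GSTU1 carries 2 copies of the core, beginning 77 and 65 bases before the gene start, and GSTU22 and GSTU25 carry 1 copy each, both 87 bases before it. GSTU7 carries 3 matches, beginning 61, 52 and 49 bases before its start, of which the last 2 overlap. GSTU22 and GSTU24, from separate arrays on chromosome 1, share a run of 15 bases close to their TGACG, which begins 79 bases before GSTU22 and 161 before GSTU24. Of the 18325 promoters, 2 hold this run. That also holds for runs shared by GSTT2 and GSTT3 (17 bases), GSTF6 and GSTF7 (15 bases) and GSTT1 and GSTT3 (15 bases), each pair from the same array. The run below is shown because its genes come from separate arrays.
Shared run of GSTU22 and GSTU24: gcagtggcctaagca

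Across the 12 libraries totals ran from 20546417 to 20897031 estimated counts, and TMM factors (edgeR's scaling) from 0.816 in the third erf114 MeJA library to 1.137 in the second Col MS library. ERF114 itself stood at 0.15, 0 and 0 FPKM in Col on MS and 2.94, 2.51 and 2.13 with MeJA, and at 0, 0.05 and 0.05 and 0.65, 0.65 and 0.5 in erf114, lower in erf114 with MeJA but not past the test (-1.95 ± 0.39, edgeR adjusted p = 0.071), so the transcript was still seen in erf114. The jasmonate marker VSP2 rose by 7.05 ± 0.20 and 7.25 ± 0.20. All 6 root markers were above 0 in every library, with summed FPKM of 3188 to 11472, most of it from BGLU23. With MeJA 1 of the 6, BGLU23, rose in both genotypes, and COBL9, a root hair gene, fell in Col (-0.74 ± 0.17, edgeR adjusted p = 0.0068) and had -0.48 ± 0.17 in erf114. The median of the 6 was -0.33 in Col and 0.06 in erf114. The first Col MS library held the highest sum of the 5 shoot photosynthesis markers, 1014, where the rest of its group held 220 and 246. In FPKM it was also lowest of its group for most GST members, among them GSTU1, GSTL1 and GSTZ1. It was highest for some others, among them GSTF8, GSTU13 and GSTU14. Seed storage markers, 3 genes, summed to 0.07 to 0.76 FPKM in the Col libraries and 0.11 in the first erf114 MS library, and to 18.7 to 46.5 in the other 5 erf114 libraries. The part of these transcripts in the GST values was not tested.

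Levels within the family were very uneven, as the map of levels by library shows. By mean FPKM over the 12 libraries GSTF9 (3062) was highest, followed by GSTF10 (2011), GSTU19 (1583), GSTU26 (813) and GSTF8 (748), and GSTU13 came next at 282. GSTF9 and GSTF10 lie side by side on chromosome 2 and have, with GSTF11 and GSTU20, been linked to glucosinolate synthesis. GSTU19 is a major tau enzyme of the plant that herbicide safeners induce. The 5 leading genes held 78.6 to 86.1% of the family's TPM (a length-scaled share of all transcripts) in each library. At the low end GSTU16 averaged 1.93 FPKM, GSTU3 1.18 and GSTF12 0.821.

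**Figure D1:**
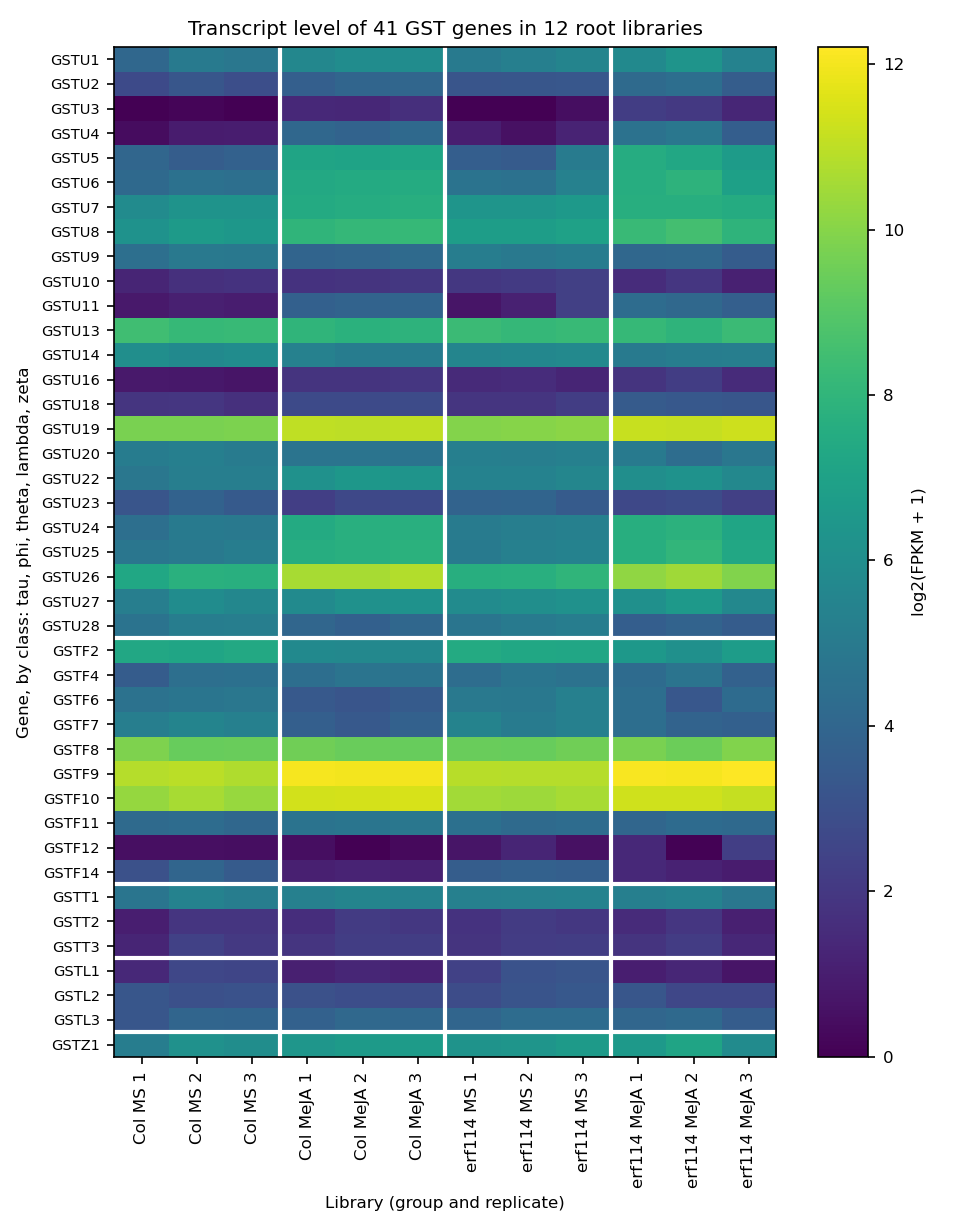
Transcript level of the 41 members, as log2(FPKM + 1), in each of the 12 libraries, with white lines between groups and between classes. GSTF9, GSTF10 and GSTU19 are the bright rows throughout, and GSTU3, GSTU4, GSTU5, GSTU6, GSTU11, GSTU24, GSTU25 and GSTU26 brighten in the MeJA columns of both genotypes.

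The family as a whole took a larger share of the transcript pool with MeJA. Its share of TPM was 0.66% ± 0.0378 (SD, n = 3) in Col on MS and 1.43% ± 0.0416 with MeJA, and 0.707% ± 0.0393 and 1.43% ± 0.0529 in erf114. The tau share was 0.201% ± 0.0142 in Col on MS and 0.592% ± 0.0276 with MeJA, and 0.232% ± 0.0173 and 0.575% ± 0.0572 in erf114. The phi share was 0.446% ± 0.0265 and 0.825% ± 0.012 in Col, and 0.457% ± 0.021 and 0.838% ± 0.0154 in erf114. MS and MeJA libraries did not overlap in either class or genotype. The makeup of the pool also differed: GSTU26 was 3.06% ± 0.558 of GST transcripts in Col on MS and 12.3% ± 0.666 with MeJA, while GSTF8, a stress-induced phi gene, was 12% ± 2.5 and 5.28% ± 0.45.

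**Figure D2:**
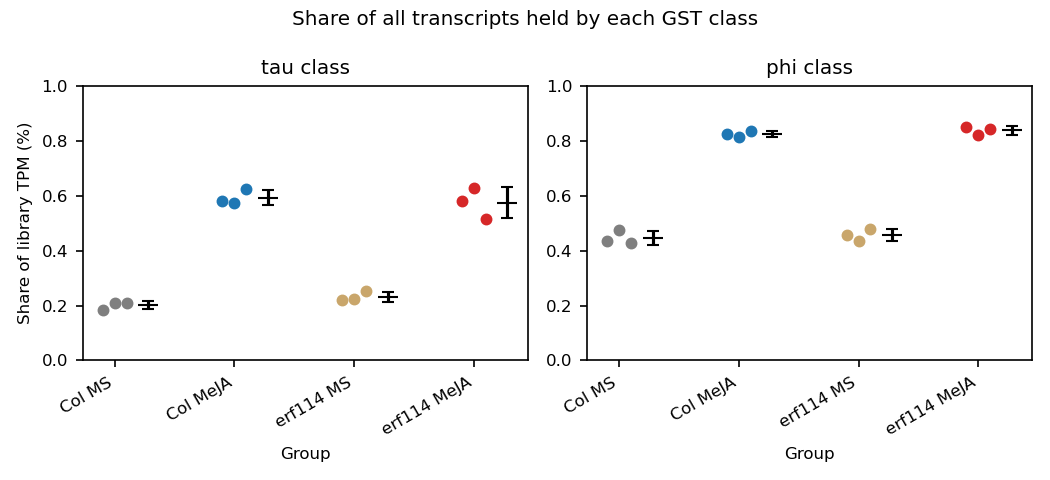
Share of each library's summed TPM, in percent, held by tau genes (left) and phi genes (right) in the 4 groups, with points for libraries and bars for the mean ± SD of 3. MeJA libraries lie above MS libraries in every panel and genotype, at 0.515 to 0.629% against 0.185 to 0.252% for tau and at 0.813 to 0.851% against 0.427 to 0.478% for phi.

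MeJA raised most tau genes in Col. Of the 41 members, 22 rose and 9 fell (edgeR's quasi-likelihood test, Benjamini-Hochberg adjusted p under 0.05), where 10.4% of all tested genes rose and 11.5% fell. In the tau class 17 of 24 rose, 4 fell and 3 did not pass the test, with a median log2 fold change of 1.31 against 0.000 over all tested genes. In erf114, 18 members rose and 6 fell, against 10.2% and 8.59% of all tested genes. There the tau class had 16 genes that rose and 3 that fell, with a median of 1.35 against -0.012 over all genes. The same 16 tau genes rose in both genotypes, and GSTU27 also passed in Col (0.57 ± 0.15 SE, adjusted p = 0.018) with 0.43 ± 0.15 in erf114 (adjusted p = 0.078). Both counts compare MeJA with the MS libraries of their own genotype. GSTU3, GSTU4, GSTU11 and GSTU16 reached the filter partly or wholly through groups in which they were high. Among the other 20 tau genes, 13 rose and 4 fell in Col, and 12 rose and 3 fell in erf114.

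**Figure D3:**
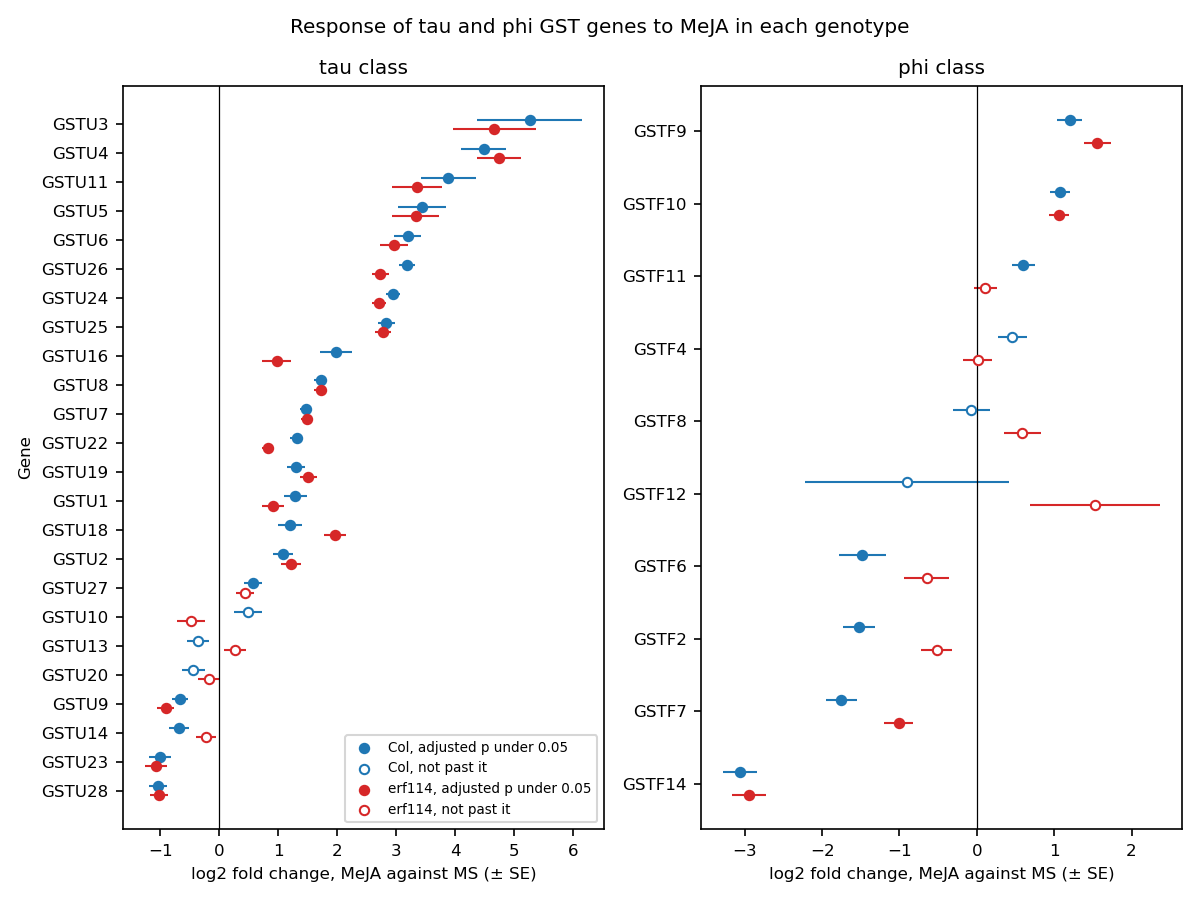
log2 fold change of MeJA against MS, ± SE, for each tau gene (left) and phi gene (right) in Col (blue) and erf114 (red), with filled points where the edgeR adjusted p was under 0.05. Tau genes lie mostly to the right of 0, from 5.26 for GSTU3 to -1.04 for GSTU28 in Col, and phi genes lie on both sides, with GSTF9 highest and GSTF14 lowest, at -3.06, in Col. GSTU3 passed the filter through MeJA libraries alone.

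The 7 tau genes of one chromosome 2 array, GSTU1 to GSTU7, all rose, by very different amounts. GSTU5, first described as an auxin-induced gene, stood at 15.1, 11.1 and 12.9 FPKM in Col on MS and at 137, 133 and 143 with MeJA. In erf114 it stood at 11.5, 10.5 and 32.4 on MS and at 188, 158 and 102 with MeJA. The third erf114 MS library was thus high, yet below every MeJA library. The log2 fold change of GSTU5 was 3.44 ± 0.41 in Col (edgeR adjusted p = 6e-05) and 3.33 ± 0.40 in erf114 (7.4e-05), and 4.05 in erf114 without that library. GSTU6 was also high there: erf114 stood at 23.9, 22.2 and 40.7 FPKM on MS and at 196, 235 and 123 with MeJA. GSTU6 rose by 3.19 ± 0.23 in Col and 2.96 ± 0.23 in erf114 (edgeR adjusted p = 1.2e-06 and 2e-06). GSTU4 was nearly silent on MS, at 0.32, 0.88 and 0.99 FPKM in Col, and reached 15.7, 14 and 16.8 with MeJA, a log2 fold change of 4.48 ± 0.38 (edgeR adjusted p = 3.9e-06). In erf114 it rose by 4.74 ± 0.37 (edgeR adjusted p = 2e-06).

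GSTU3 had 2 estimated counts over the 3 Col MS libraries and 86 over the Col MeJA libraries, a ratio of 43.1 with an exact 95% counting interval of 11.6 to 362. In erf114 it had 6 and 133 counts, a ratio of 22.1 (9.88 to 61.3). It stayed below 4 FPKM in every library, at 1.68, 1.56 and 2.14 in Col and 3.69, 3.06 and 1.48 in erf114 with MeJA. GSTU3 passed the filter through MeJA libraries alone, so its rise is not independent of the filter. GSTU7, GSTU1 and GSTU2 at the ends of the same array rose less, by 1.47 ± 0.10, 1.29 ± 0.19 and 1.08 ± 0.17 in Col and by 1.49 ± 0.10, 0.91 ± 0.19 and 1.21 ± 0.17 in erf114, all past the test.

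On chromosome 1, GSTU24, GSTU25 and GSTU26 rose together. GSTU24 and GSTU25 encode enzymes known to conjugate the explosive TNT, and GSTU26 is known as a gene that herbicides induce. GSTU26 stood at 151, 215 and 210 FPKM in Col on MS and at 1571, 1584 and 1796 with MeJA, which placed it behind GSTF9, GSTF10 and GSTU19 alone. In erf114 it stood at 200, 204 and 256 on MS and at 1177, 1430 and 957 with MeJA, so the erf114 MeJA libraries lay below those of Col. Its log2 fold change was 3.18 ± 0.14 in Col (edgeR adjusted p = 2.8e-08) and 2.73 ± 0.14 in erf114 (7.1e-08), and the difference between genotypes, -0.45 ± 0.19, did not pass (edgeR interaction adjusted p = 0.64). GSTU24 rose by 2.95 ± 0.12 in Col and 2.70 ± 0.12 in erf114, and GSTU25 by 2.83 ± 0.14 and 2.77 ± 0.14.

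Other tau genes that rose in both genotypes sat elsewhere. GSTU11 stood at 0.78, 1.1 and 0.98 FPKM in Col on MS and at 12.2, 13.8 and 14.5 with MeJA, a log2 fold change of 3.88 ± 0.47 (edgeR adjusted p = 7.5e-05). In erf114 its MS libraries were spread, at 0.61, 1.17 and 3.92, and its MeJA libraries stood at 19.1, 16.2 and 11.8, a log2 fold change of 3.35 ± 0.43 (edgeR adjusted p = 0.00013) that was 4.44 without the third MS library. GSTU8 rose by 1.72 ± 0.11 in each genotype. GSTU19, already abundant, stood at 872, 870 and 885 FPKM in Col on MS and at 2116, 2003 and 2126 with MeJA. In erf114 it stood at 993, 1013 and 1070 and at 2312, 2278 and 2456, rises of 2.47-fold and 2.85-fold (log2 SE 0.15 each, edgeR adjusted p = 4.7e-05 and 1.4e-05). GSTU22 rose by 1.31 ± 0.11 in Col and 0.82 ± 0.10 in erf114, GSTU16 by 1.97 ± 0.27 and 0.97 ± 0.24, all past the test, and GSTU18 rose 2.31-fold and 3.88-fold (log2 SE 0.20 and 0.19).

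Fewer tau genes fell. GSTU28 stood at 23.9, 34.7 and 35.9 FPKM in Col on MS and at 15.2, 12.5 and 15.7 with MeJA, a log2 fold change of -1.04 ± 0.15 (edgeR adjusted p = 0.00026), and of -1.02 ± 0.15 in erf114. GSTU23 fell as well, with log2 values of -1.01 ± 0.19 in Col and -1.07 ± 0.19 in erf114, as did GSTU9, with -0.67 ± 0.14 and -0.91 ± 0.14. GSTU14 fell in Col (-0.69 ± 0.17, edgeR adjusted p = 0.011), and in erf114 its value was -0.23 ± 0.17. GSTU13, whose enzyme acts in pathogen-induced indole glucosinolate metabolism, was the sixth most abundant member and did not pass in either genotype, with -0.36 ± 0.19 and 0.26 ± 0.19. GSTU20, an interaction partner of the jasmonate-conjugating enzyme JAR1, did not pass either, with -0.44 ± 0.19 and -0.18 ± 0.18.

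Phi genes moved both ways. In Col 3 of 10 phi genes rose and 4 fell, where 10.4% of all tested genes rose and 11.5% fell. The median log2 fold change was -0.48 against 0.000 over all tested genes. In erf114 2 rose and 2 fell, where 10.2% of all genes rose and 8.59% fell, with a median of 0.06 against -0.012. With 10 genes, the erf114 counts are close to the background. GSTF12, which reached the filter through erf114 libraries alone, was not called in either genotype. Those that rose in both genotypes were GSTF9 and GSTF10, the family's most abundant genes. GSTF9 stood at 1862, 1993 and 1711 FPKM in Col on MS and at 4142, 4050 and 4111 with MeJA, and in erf114 at 1888, 1852 and 1872 and at 4362, 4175 and 4725. It rose 2.29-fold in Col (log2 SE 0.16, edgeR adjusted p = 0.0002) and 2.95-fold in erf114 (log2 SE 0.17, 2.6e-05), and GSTF10 rose by 1.07 ± 0.13 and 1.06 ± 0.13 on the log2 scale. GSTF8, the next phi gene in level, did not pass the test in either genotype (-0.07 ± 0.24 and 0.59 ± 0.24). GSTF11 rose in Col (0.60 ± 0.15, edgeR adjusted p = 0.011), and in erf114 its value was 0.11 ± 0.15.

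GSTF14 fell most of all members. It stood at 7.16, 15 and 10.5 FPKM in Col on MS and at 1.13, 1.36 and 1.15 with MeJA, and in erf114 at 11.1, 12.9 and 12 and at 1.61, 1.25 and 0.91. The groups did not overlap, and the log2 fold changes were -3.06 ± 0.22 (edgeR adjusted p = 1e-06) and -2.94 ± 0.22 (1.3e-06). GSTF7, a pathogen-induced phi gene, fell in both genotypes, with log2 values of -1.75 ± 0.20 in Col and -1.01 ± 0.19 in erf114 (edgeR adjusted p = 4.2e-05 and 0.0025). GSTF6, whose enzyme joins glutathione to indole-3-acetonitrile in camalexin synthesis, stood at 23.2, 25.4 and 27.4 FPKM in Col on MS and at 9.78, 8.18 and 10.5 with MeJA, a log2 fold change of -1.48 ± 0.30 (edgeR adjusted p = 0.0036). In erf114 it stood at 29.3, 28.4 and 39.4 and at 20.3, 8.86 and 18.3, with -0.65 ± 0.29 (edgeR adjusted p = 0.17). GSTF6 and GSTF7 are neighbours with 94.3% identical coding sequence, so reads could have been shared out between them and their separate values are uncertain.

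GSTF2, which binds indole compounds such as camalexin, fell in Col from 158, 144 and 166 FPKM on MS to 55, 51.2 and 51.6 with MeJA, a log2 fold change of -1.52 ± 0.21 (edgeR adjusted p = 0.0002). In erf114 it stood at 177, 152 and 149 on MS and at 90.1, 69.1 and 107 with MeJA, with -0.52 ± 0.20 (edgeR adjusted p = 0.11). Its near copy GSTF3 has 94.5% coding identity and was listed at a mean of 0.263 FPKM over the 12 libraries, and how the authors' counting shared reads between them is not given. GSTF12, also known as TT19 and needed for anthocyanin accumulation, stayed under 1 FPKM in every Col library.

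Of the 7 theta, lambda and zeta members 2 rose and 1 fell in Col, and 0 rose and 1 fell in erf114. Over all tested genes 10.4% rose and 11.5% fell in Col, and 10.2% rose and 8.59% fell in erf114, so the count that fell is near the background. GSTL1 fell in both genotypes, with log2 values of -1.45 ± 0.37 in Col (edgeR adjusted p = 0.013) and -2.37 ± 0.37 in erf114 (0.00058). It stood at 1.66, 4.97 and 4.83 FPKM in Col on MS and at 1.08, 1.5 and 1.28 with MeJA, and in erf114 at 4.19, 7.55 and 8.18 and at 1.01, 1.51 and 0.59. In Col the first MS library lay close to the MeJA libraries. GSTZ1, the maleylacetoacetate isomerase of tyrosine breakdown, rose in Col (0.92 ± 0.24, edgeR adjusted p = 0.015) from 35, 70.1 and 61.6 FPKM to 83.5, 98.2 and 104, and its edgeR adjusted p was 0.0525 without the first Col MS library and 0.057 without the third Col MeJA library. The Col call of GSTL1 was likewise lost in 3 of those fits. GSTT1 rose in Col by 0.36 ± 0.11 (edgeR adjusted p = 0.036), a call lost in 5 of the fits that left out a library. GSTT2, GSTT3, GSTL2 and GSTL3 did not pass in either genotype, and GSTT2 and GSTT3 share 91.0% of their coding sequence.

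Many GST genes lie in tandem arrays, and neighbours moved together in some arrays and not in others. With gaps of at most 10 kb in TAIR10.1, 32 of the 46 listed genes fell into 10 arrays. The largest, chr2:12617936-12632538, holds GSTU7, GSTU6, GSTU5, GSTU4, GSTU3, GSTU2 and GSTU1 on the minus strand in 14.6 kb, and all 7 rose in both genotypes. The array of GSTU24, GSTU25 and GSTU26 at chr1:5869543-5876620, in 7.1 kb on the plus strand, rose whole as well. The array at chr1:29467412-29488007 was mixed: GSTU19 and GSTU22 rose, GSTU23 fell, GSTU20 did not pass and GSTU21 was below the filter. In the phi array at chr1:658578-666471, GSTF6 and GSTF7 fell in Col, GSTF4 did not pass (0.46 ± 0.19) and GSTF5 was below the filter. Coding identity reaches 85.5% between GSTU1 and GSTU2 and 83.1% between GSTU5 and GSTU6, so reads in the shared stretches of array genes could have been assigned to a neighbour.

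**Figure D4:**
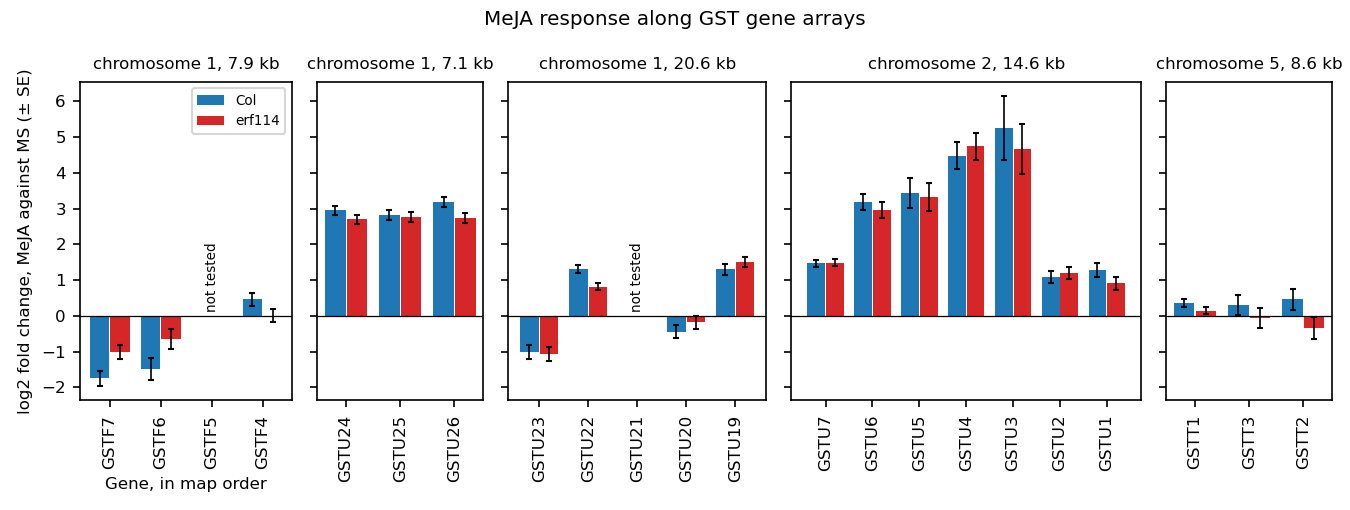
log2 fold change of MeJA against MS (bars, ± SE) in Col and erf114 for the genes of each array of 3 or more GST genes, in map order, with the array's chromosome and length above. All 7 genes of the 14.6 kb array are above 0 and highest in its middle, at GSTU3 and GSTU4, while the 20.6 kb array holds rises and falls side by side. The GSTU3 bar rests on few counts on MS, and GSTU3 passed the filter through MeJA libraries alone.

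The erf114 genotype changed no member past the test. On MS edgeR called 0 of 41 members, while 0.0109% of all genes were called higher and 0.0218% lower in erf114, 0.0327% in all. DESeq2 and limma on log2(FPKM + 1) also called 0 members, against 0.0844% and 0.0382% of the genes each tested. The DESeq2 shares are over 23707 genes, without the FPKM filter, so they are not on the same set as those of edgeR and limma. At an unadjusted p under 0.05 there were 10 members, against 3.82% of all genes. Of these, 9 had a higher value in erf114, among them GSTU16 (1.14 ± 0.28), GSTL1 (0.73 ± 0.32) and GSTU1 (0.53 ± 0.19), and GSTU14 was lower (-0.41 ± 0.17). GSTU16 reached 1 FPKM in 0 Col MS libraries and passed the filter through the other groups, so its value is not independent of the filter. GSTL1 and GSTU1 were lowest of their group in the first Col MS library, at 1.66 and 15.7 FPKM. In FPKM, which carries no TMM scaling, GSTZ1, GSTL3, GSTU8, GSTU10, GSTU22 and GSTU24 were lowest there too. GSTU14 was highest of its group there, at 64.8 FPKM, as was GSTU16, at 0.8. The part of that library in these differences was not tested. With MeJA edgeR called 0 members, while 0.327% of all genes were called higher and 0.0546% lower, 0.382% in all, with 8 at an unadjusted p under 0.05 against 8.58% of all genes. DESeq2 called 2 members there, GSTU18 and GSTF2, against 0.991% of its unfiltered genes, and limma on log2(FPKM + 1) called 1, GSTF2, against 0.437%. For the interaction, the difference between the MeJA responses of the genotypes, edgeR called 0 members against 0.0273% of all genes, with 9 at an unadjusted p under 0.05 against 6.04%, and DESeq2 called 0 against 0.169%.

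The members nearest to a genotype call with MeJA were GSTU18 and GSTF2. GSTU18 stood at 5.61, 5.64 and 5.97 FPKM in Col with MeJA and at 10.3, 9.21 and 8.69 in erf114 with MeJA, so the groups did not overlap. Its log2 difference was 0.85 ± 0.18, with an adjusted p of 0.092 in edgeR, 0.00396 in DESeq2 and 0.0379 in edgeR without the first Col MS library. ERD9, the tau gene GSTU17 known to act in drought and light responses, carries a symbol outside the naming rule. Its annotated span, chr1:3396883-3398358, overlaps that of GSTU18, chr1:3395551-3396953. Reads could have been shared between them, so their values may not be separate. ERD9 stood at 12.7, 11.1 and 12.3 FPKM in Col with MeJA and at 22.7, 19.9 and 22.4 in erf114 with MeJA. Its log2 difference of 0.99 ± 0.18 passed the test (edgeR adjusted p = 0.041), and 9 of the 12 fits that left out a library lost that call. The promoter window of GSTU18 overlaps ERD9.

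GSTF2 was higher in all 3 erf114 MeJA libraries than in any Col MeJA library, with a log2 difference of 0.90 ± 0.21 and an adjusted p of 0.12 in edgeR, 0.00896 in DESeq2 and 0.022 in edgeR without the second erf114 MeJA library. GSTF6 and GSTF7 had differences of 0.99 ± 0.30 and 0.58 ± 0.20 there (edgeR adjusted p = 0.33 and 0.41). Within the erf114 MeJA group GSTF2 and GSTF6 were lowest in the second library. Summed FPKM of 5 shoot photosynthesis markers was also lowest in that library, at 105 against 412 and 614, while the Col MeJA libraries held 185, 169 and 458. The part of these transcripts in the GSTF2 and GSTF6 values was not tested.

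**Figure D5:**
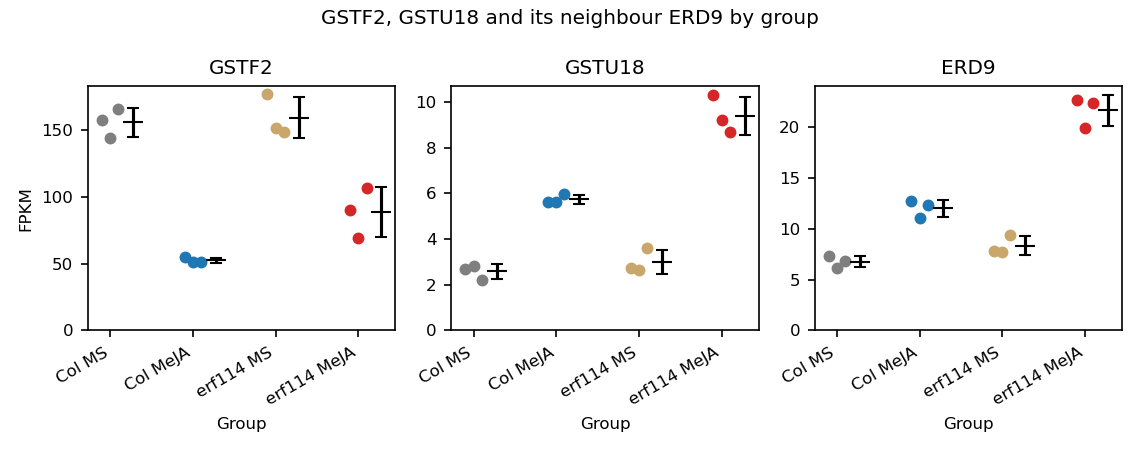
FPKM of GSTF2, GSTU18 and ERD9 in each library by group, with bars for the mean ± SD of 3. The erf114 MeJA points lie above the Col MeJA points in each panel, at 69.1 to 107 against 51.2 to 55 FPKM for GSTF2. In FPKM, which carries no TMM scaling, the MS groups of Col and erf114 overlap for GSTF2 and GSTU18 and not for ERD9.

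GSTF12 was the member with the largest difference with MeJA, 3.34 ± 1.06, but it did not pass (edgeR adjusted p = 0.35). It reached the filter through 3 libraries, all of them erf114, so a genotype test on it is not independent of that selection. It stood at 0.36, 0 and 0.24 FPKM in Col with MeJA and at 1.67, 0.06 and 3.83 in erf114 with MeJA, so the groups overlapped. On MS it stood at 0.61, 1.4 and 0.48 in erf114. In the same order, the seed storage marker sums were 0.11, 41.8 and 41.2 FPKM in erf114 on MS and 25.6, 18.7 and 46.5 with MeJA. The shoot photosynthesis marker sums were 381, 884 and 358 on MS and 412, 105 and 614 with MeJA. Within each erf114 group they had the same order as GSTF12, which the seed sums had with MeJA alone. In Col the orders of shoot sums and GSTF12 differed. The sums were 1014, 220 and 246 on MS, with GSTF12 at 0.42, 0.42 and 0.36 FPKM. With MeJA they were 185, 169 and 458, with GSTF12 at 0.36, 0 and 0.24. Without the second erf114 MeJA library, the lowest of its group for GSTF12, the difference was 3.94, under the same limit. The part of these transcripts in the GSTF12 values was not tested.

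Genes that supply glutathione or handle its conjugates rose with MeJA as well. Of a list of 9, 8 rose in Col and 7 in erf114, where 10.4% and 10.2% of all tested genes rose. The Col call of GR2, a glutathione reductase (0.35 ± 0.10), was lost in 4 of the fits that left out a library, with edgeR adjusted p of 0.0842 to 0.106. With limma on log2(FPKM + 1) the erf114 calls of the list genes GR1, GR2, GGT4 and ABCC2 were lost, with limma adjusted p of 0.143 to 0.246. GSH1, the rate-limiting enzyme of glutathione synthesis, rose by 1.94 ± 0.11 and 2.01 ± 0.11, GSH2, the second enzyme, by 1.23 ± 0.13 and 1.04 ± 0.13, and GGP1, a peptidase that trims glutathione conjugates on the way to glucosinolates and camalexin, by 2.15 ± 0.16 and 1.97 ± 0.16. GGT1, a gamma-glutamyl transpeptidase, did not pass in either genotype. Of 5 tested GST-like genes outside the naming rule, DHAR1, a dehydroascorbate reductase, and ERD9 rose in both genotypes, by 1.12 ± 0.14 and 0.88 ± 0.19 in Col, and DHAR2 in erf114 (0.57 ± 0.16), while DHAR3 and TCHQD did not pass in either. The phi gene ATGSTF13, which the list does not hold, stood at 33, 25.2 and 26.8 FPKM in Col on MS and at 20.2, 17 and 18.1 with MeJA. Those groups did not overlap, but its log2 value of -0.59 ± 0.20 did not pass (edgeR adjusted p = 0.06), nor did 0.06 ± 0.20 in erf114. Of 9 genes of the TGA and as-1 response, CYP81D11, a P450 induced by xenobiotics and jasmonate, rose by 3.01 ± 0.25 and 2.18 ± 0.24, and UGT74E2, OPR1 and OPR2 also rose in both genotypes. CYP81D8, another P450 of this response, did not pass in either genotype, with -0.32 ± 0.35 and 0.20 ± 0.33. The transcripts of the factors themselves, TGA2, TGA5, TGA6 and SCL14, did not pass the test.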

How the data were processed

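RNA sequencing measured transcripts in 12 root libraries, 3 for each of 4 groups named in the sample titles. Per the file headers, each deposited table gives read counts, TPM and FPKM per gene. From 1.542 to 1.718% of the count values in a library were fractional, so the deposited estimated counts were rounded before testing. TPM, as deposited, served for shares of the transcript pool, and the authors' deposited FPKM values for the filter, for levels and for alternatives on the log2(FPKM + pseudocount) scale. FPKM and TPM carry no further scaling between libraries. The sources used here name no aligner, counting tool, strand setting or genome build. A gene missing from a table was set to 0. All 23719 gene identifiers matched TAIR10.1, which gave coordinates and sequence. The tables held 0 columns of other samples.

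R 4.3.3 with edgeR 4.0.16 fitted the rounded counts of 18326 genes (at least 3 libraries with an FPKM of 1 or more) with TMM factors, 4 group means, 8 residual degrees of freedom, the quasi-likelihood test and Benjamini-Hochberg adjustment at 0.05. SEs were taken as log2 fold change over the square root of F, which is approximate for few counts. The biological coefficient of variation was 17.9%. The fit was tested on simulated data. Alternatives were DESeq2 1.42.0, median-of-ratios factors, leaving the filter off, keeping genes of mean FPKM 5 or more, limma 3.58.1 on log2(FPKM + 1) and log2(FPKM + 0.1), the replicate number as a block, and leaving out each library. DESeq2 was run without the FPKM filter, on 23707 genes. Sequence work used Python 3.11.15 and Biopython 1.88. Coding identity is from global alignment of the longest annotated coding sequences.

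The members, the gene lists and the alternatives were chosen with earlier results of these data known. By the rule for named genes any GST gene may be named, and full statistics go to members called with MeJA whose higher group averages 5 FPKM or more, to members called between genotypes, and to the most abundant. Values outside that rule, such as those of GSTU3, GSTU10, GSTU16, GSTL1, GSTF12 and uncalled members, were chosen after they were seen. The phi gene ATGSTF13 falls outside the naming rule. Replicate numbers were checked for pairing by the correlation of deviations from group means, with a minimum of 0.1 in each pair. Numbers paired for the MeJA contrast in Col (0.43, 0.43 and 0.26) and for the genotype contrast on MS (0.2, 0.21 and 0.3), and the block changed no member call in those contrasts. No source says that libraries came from separate cultures, so p-values measure the spread between these libraries. No replicate pair agreed within sampling noise, with a chi-square per gene of 6.9 to 59. Intervals cover counting error only.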

Additional observations from a re-analysis of the deposited data

Results flagged for a closer look

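GSTU10, a tau gene of low level, had FPKM that moved in opposite directions in the genotypes, which is why it is listed here. It stood at 1.39, 2.21 and 2.44 FPKM in Col on MS and at 2.47, 2.54 and 2.97 with MeJA, and in erf114 at 2.88, 3.18 and 3.96 on MS and at 1.95, 2.77 and 1.17 with MeJA. In FPKM, which carries no TMM scaling, all Col MeJA libraries lay above the Col MS libraries. All erf114 MeJA libraries lay below the erf114 MS libraries on that scale. Both separations were narrow, 2.47 against 2.44 FPKM at the closest in Col and 2.77 against 2.88 in erf114. TMM factors were 0.928 and 1.084 in those Col libraries, and 0.985 and 1.081 in those erf114 libraries. Divided by these factors, the erf114 values change order, so the erf114 separation does not hold after the scaling that the edgeR test used. Neither change passed the test, with log2 values of 0.49 ± 0.24 and -0.48 ± 0.24 (edgeR adjusted p = 0.19 and 0.23). The difference between them was -0.96 ± 0.34 on the log2 scale, with an unadjusted p of 0.016 in a fit across all genes by edgeR and an adjusted p of 0.64. Over the alternatives that difference ran from -1.22 to -0.75.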

How the results depend on the processing

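Median-of-ratios factors, no filter on low values and a mean FPKM of at least 5 left every class count within 1.5 times the reported value. With limma on log2(FPKM + 1) or log2(FPKM + 0.1), 5 tau and 4 phi genes fell in erf114 in place of 3 and 2. The median of all genes was -0.282 and -0.324 in those fits, which differ from edgeR in both test and scaling, and the cause was not tested. In the same contrast the phi count was also 4 with the replicate block, where GSTF2 (-0.54) and GSTF6 (-0.71) passed; its numbers did not pair (correlations -0.26, 0.14 and -0.31), and the block moved no other member call. Members called between genotypes with MeJA were 2 with DESeq2 and 1 with limma on log2(FPKM + 1), in place of 0. Leaving out each library gave 16 to 17 tau genes that rose and 3 to 5 that fell in Col, and 15 to 17 and 3 to 3 in erf114. The phi class gave 2 to 3 and 4 to 4 in Col, and 2 to 4 and 2 to 3 in erf114. Members called between genotypes were 0 to 0 on MS, 0 to 3 with MeJA, where the 3 came without the second erf114 MeJA library, and 0 to 0 for the interaction. Those 3 include GSTF12, which reached the filter through erf114 libraries alone, so its call is not independent of the filter. Without the second erf114 MeJA library 4 phi genes rose in erf114, with GSTF8 (0.76) and GSTF12 (2.12) added. Signs reversed for values that had not passed: leaving out a library gave -0.22 to 0.27 for GSTF8 in Col and -0.33 to 0.03 for GSTU20 in erf114, and with limma in erf114 GSTF11 was -0.18 or -0.19, GSTT1 -0.17 and GSTU13 -0.07. In Col the calls of GSTU27, GSTT1, GSTL1, GSTZ1, GSTF11 and GSTU14 were each lost in at least 1 fit that left out a library, and the cause was not tested. With limma the Col calls of GSTZ1, GSTU27 and GSTT1 and the erf114 calls of GSTU1 and GSTU16 were lost. Outside the members, limma also lost the erf114 calls of ABCC2, GR1, GR2, GGT4, DHAR2 and OPR2. GSTU3 and GSTF12 rest on few counts, and depth limits what can be said of them.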
